A study of Mus musculus with 6 samples.

Results

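The regions described here were H3K27ac peaks of mouse quadriceps that the deposited annotation called intergenic and placed within 50 kb of a transcription start site (TSS), called near-intergenic peaks below. A peak was a member when its annotation read intergenic and its distance to the nearest TSS was under 50000 bp. The distance is taken from the peak's centre, and 198 control and 218 detrained members were wide enough to reach that TSS. The control list held 8897 members among 46988 peaks (18.9%), and the detrained list held 7628 among 40721 (18.7%). A control peak and a detrained peak formed a pair when each covered 50% or more of the other, and 4611 of the 26432 such pairs had a member on both sides. The pairing rule itself used position only, but it required a called peak in both lists, so pairing was not independent of signal. Of control members with a peak score (pooled signal) below 20, 15.9% had a partner by this rule, against 89.4% at 200 or more. For detrained members the shares were 23.8% and 86.6%.

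Acetylation of histone H3 at lysine 27 (H3K27ac) marks nucleosomes at active promoters and active enhancers. Enhancers are stretches of DNA bound by transcription factors that raise transcription of a gene in cis, often from many kilobases away, so intergenic peaks near a gene are where candidate distal enhancers of that gene are looked for. In skeletal muscle such elements are known to be bound by MyoD-family factors at E-boxes and by MEF2, TEAD and AP-1 factors. Assignment to the nearest TSS is a naming convention and does not establish which gene an element acts on.

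Quadriceps came from wild type mice in 2 groups, C57BL/6 in the labels and C57BL/6J in the study's methods. Control mice were sedentary, and detrained mice had free access to running wheels for 4 weeks from 8 weeks of age and were rested for 72 hours before harvest, a comparison that asks how far the chromatin of a trained muscle still differs after rest. Each group had 2 H3K27ac libraries, C2 and C3 for control and Ex1 and Ex2 for detrained mice, and 1 input library. Per the study's methods the mice were male, a sample was 1 quadriceps of 1 animal, and whole muscle was used, so nuclei of vessels, connective tissue and immune cells were included with those of myofibres. A change in the share of a cell type and a change of the mark within a cell cannot be told apart in such samples. The strain field of the input samples reads C57BL/7 and C57BL/8 in place of C57BL/6.

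The H3K27ac libraries held 20805019 to 22400894 tags, the control input 10812470 and the detrained input 21298438. Each list was called on its pooled libraries against its own input, so list length and input depth cannot be told apart. The labelled tissue was checked at gene starts from the GENCODE annotation. A peak covered the start of 13 of 14 fast-fibre contractile genes in either list and of 6 of 8 myofibre markers, with Ckm and Mb the exceptions. Of 7 genes typical of liver, neurons or heart (such as Alb, Syn1 and Myh6) no start was covered in either list. Starts of endothelial markers were covered in 7 of 9 cases in both lists, of fibroblast markers in 7 of 8 (control) and 6 of 8 (detrained), and of macrophage markers in 2 of 8 (control) and 5 of 8 (detrained). The part of such cells in the values below was not tested.

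The central 300 bases of 4 paired members are printed as examples that hold a searched motif, each centred on the stretch covered by both peaks. They were picked among the named pairs for holding one and are not typical: the E-box, present in 3 of the 4, is in 21.4% of all paired members. They are 2 of the 3 named below for lower density in detrained mice (Mpst and Ahdc1), and the densest pair of 2 muscle gene lists (Acta1 and Jph1). Sequence is the plus strand of mm10 as given by RefSeq. By GENCODE the Mpst, Ahdc1 and Jph1 pairs touch no gene, and the Acta1 pair is centred inside the gene Gm20388. Capitals mark a searched motif: the E-box CAGCTG in Mpst, Ahdc1 and Acta1, and the reverse complement of the AP-1 site TGAGTCA in Jph1. The windows lie at chr15:78416756-78417055 (Mpst), chr4:133002881-133003180 (Ahdc1), chr8:123882561-123882860 (Acta1) and chr1:17120200-17120499 (Jph1).
Mpst: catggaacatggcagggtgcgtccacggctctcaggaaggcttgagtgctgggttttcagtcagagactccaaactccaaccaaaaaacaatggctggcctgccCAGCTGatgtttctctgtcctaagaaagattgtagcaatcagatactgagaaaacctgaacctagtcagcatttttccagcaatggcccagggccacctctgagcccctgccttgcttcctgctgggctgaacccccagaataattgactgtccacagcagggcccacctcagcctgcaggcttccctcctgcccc
Ahdc1: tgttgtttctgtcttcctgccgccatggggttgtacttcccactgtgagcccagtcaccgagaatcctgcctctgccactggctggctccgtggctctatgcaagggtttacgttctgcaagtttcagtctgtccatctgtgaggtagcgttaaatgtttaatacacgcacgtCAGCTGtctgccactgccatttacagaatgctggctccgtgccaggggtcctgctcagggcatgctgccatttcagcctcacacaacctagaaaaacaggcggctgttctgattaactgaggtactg
Acta1: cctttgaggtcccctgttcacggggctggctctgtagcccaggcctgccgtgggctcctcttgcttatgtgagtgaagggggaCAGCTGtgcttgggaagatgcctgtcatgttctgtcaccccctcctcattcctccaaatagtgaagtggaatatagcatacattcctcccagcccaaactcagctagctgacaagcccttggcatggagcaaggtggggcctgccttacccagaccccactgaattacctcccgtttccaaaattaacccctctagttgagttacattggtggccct
Jph1: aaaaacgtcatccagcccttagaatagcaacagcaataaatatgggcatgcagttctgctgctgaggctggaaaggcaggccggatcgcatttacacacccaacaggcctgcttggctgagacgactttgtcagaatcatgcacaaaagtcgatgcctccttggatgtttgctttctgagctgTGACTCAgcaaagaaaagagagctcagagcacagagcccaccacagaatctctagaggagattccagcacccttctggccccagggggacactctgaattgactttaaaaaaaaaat

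Near-intergenic peaks were mostly of moderate size and lay upstream of their nearest gene. Median length was 1438 bp in the control list and 1719 bp in the detrained list, with a range from 500 bp to 32586 and 34534 bp. Median peak score, the pooled tags of both libraries per 10000000, was 35.5 and 45.4. The nearest gene was 4724 different genes in the control list and 4342 in the detrained list, and it was protein-coding for 80.1% and 80.4% of members. In the control list 72.5% of members lay upstream of the TSS and in the detrained list 72.9%. Downstream of a TSS lies the gene itself, whose peaks carry an intron or exon annotation and are not members.

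Members were most frequent per kb at 2 to 5 kb from the TSS, and fewer both nearer and farther. Peaks centred at a TSS carry a promoter annotation and are not members, so the interval within 2 kb was only partly open to them. The control list held 141 members per kb of distance within 2 kb, 325 from 2 to 5 kb, 295 from 5 to 10 kb, 229 from 10 to 20 kb and 93.5 from 40 to 50 kb. The detrained list held 129 within 2 kb, 272 at 2 to 5 kb and 82.6 at 40 to 50 kb. The share upstream was 98.6% of control members within 2 kb and 60.2% at 40 to 50 kb. Median score, by contrast, was flat beyond 2 kb, between 32.7 and 35.7 in every control interval and between 40.4 and 47.4 in every detrained interval. The 282 control and 258 detrained members within 2 kb stood apart, with median scores of 107.8 and 146.35, and 48.6% and 57.0% of them were wide enough to reach the TSS.

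**Figure D1:**
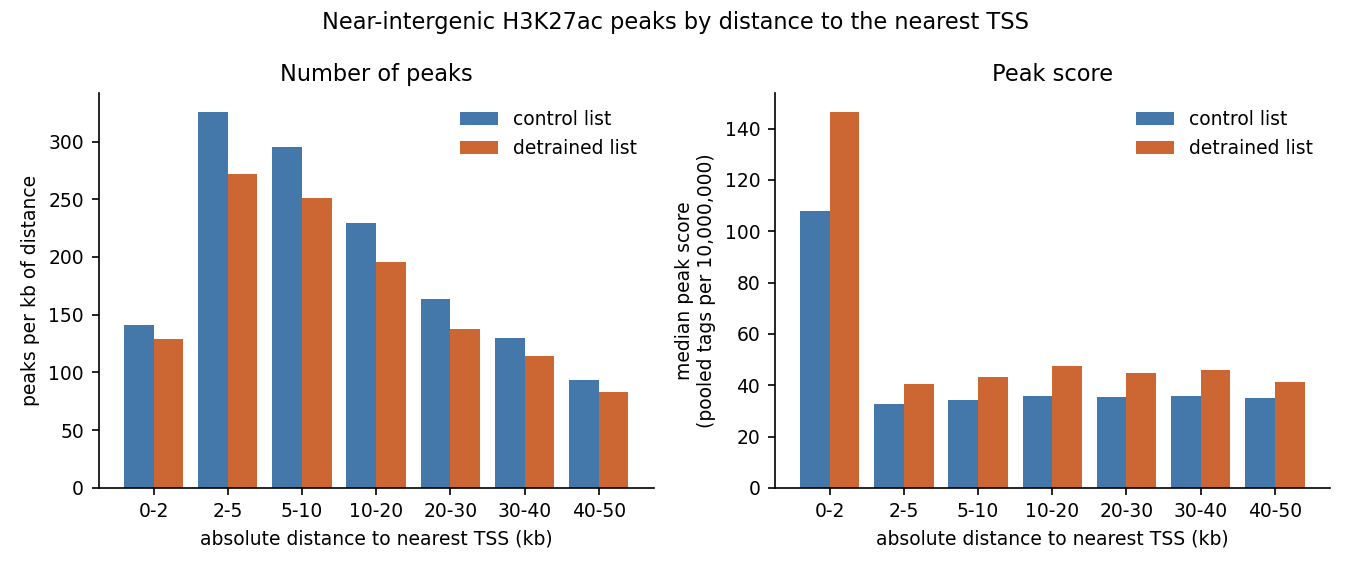
Near-intergenic peaks by absolute distance to the nearest TSS (x axis, kb), in the control (blue) and detrained (orange) lists. The left panel gives the number of peaks per kb of distance, highest at 2 to 5 kb (325 and 272) and lowest at 40 to 50 kb (93.5 and 82.6), and the right panel gives the median peak score in pooled tags per 10000000, which stands out only within 2 kb (107.8 and 146.35).

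At the distance limit itself peak counts changed little, and median density was somewhat lower just outside it in every library. Just inside it, from 45 to 50 kb, there were 445 control and 385 detrained intergenic peaks, and just outside it, from 50 to 55 kb, there were 421 and 363. The median log2 tag density of the 206 pairs just inside was 4.91, 4.94, 4.93 and 4.90 in the libraries C2, C3, Ex1 and Ex2, and that of the 207 pairs just outside was 4.84, 4.85, 4.88 and 4.84.

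Tag density below is the estimated tags of 1 library, plus 0.5, per kb of peak and per 10000000 tags of that library. Members varied by 4.58-fold in mean density between the 5th and 95th percentiles of the 4611 pairs. Paired members had a median log2 density of 4.98 (C2) and 5.04 (C3) in control and of 5.02 (Ex1) and 4.996 (Ex2) in detrained libraries, so both detrained values lay between the control values. In each of the 4 libraries near-intergenic pairs were denser than the 2750 pairs of intergenic peaks at 50 kb or more, by 0.11 to 0.13 on the log2 scale (mean 1.08-fold). They were less dense than the 11081 intron pairs by 0.09 to 0.15, and less dense than the 3645 promoter pairs by 0.98 to 1.09. These gaps had the same sign in 4 of 4 libraries, and an exact two-sided sign-flip test over 4 libraries cannot give a p below 0.125. Classes are compared as medians over peaks, which are not replicates.

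The nearest-TSS annotation in the files follows RefSeq, and a second annotation placed part of the members differently. By GENCODE, 940 of the 4611 pairs (20.4%) were centred inside a gene record, 461 in a long noncoding RNA and 449 in a protein-coding gene with some in both, and 179 (3.88%) were centred in an exon. A GENCODE gene start lay inside 498 pairs (10.8%). Their median log2 density was 5.55, 5.65, 5.65 and 5.58 in C2, C3, Ex1 and Ex2, against 4.92, 4.99, 4.96 and 4.94 for the 4113 pairs without one, a gap of 0.63 to 0.70 in every library (mean 1.58-fold). The 393 of them that did not reach their nearest RefSeq TSS had medians from 5.45 to 5.54. Among members whose nearest gene is in GENCODE, the start of that gene was under a peak of the same list for 64.4% in control and 65.2% in detrained mice, compared with 57.9% and 57.5% for intergenic peaks at 50 kb or more and 72.1% and 71.8% for intron peaks. Peaks reaching their nearest TSS were not left out: in control 198 members, 3697 intron peaks and 0 intergenic peaks at 50 kb or more. Such a peak can cover the start itself, so these shares are not directly comparable between classes.

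Of the 6 densest members, 5 are described. Their nearest genes were Per1, a repressor of the circadian clock, Setd1b, a histone H3K4 methyltransferase, Tnrc18, Gm7244 and Bicral, which encodes a subunit of a SWI/SNF-type chromatin remodelling complex. The Per1 peak (control chr11:69091730-69102350) had 182.5 and 194.4 in control and 215.3 and 210.5 in detrained libraries, which did not overlap, a difference of 13.0%. Peaks at Setd1b (chr5:123133161-123144609) and Tnrc18 (chr5:142812571-142824627) overlapped between groups, at 183.3 and 212.6 against 195.4 and 179.7, and at 170.8 and 192.6 against 172.3 and 162.0.

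These 3 peaks reached their nearest TSS, since they were centred 1212 to 3308 bp upstream and were 10620 to 12056 bp long in the control list. The peaks near Gm7244 (chr9:31278717-31282117, 9016 bp downstream of its TSS) and Bicral (chr17:46852619-46859233, 24513 bp upstream) did not reach the RefSeq TSS, but a GENCODE start lay inside each, of Prdm10 and a lincRNA in the first and of Bicral in the second. The Gm7244 peak had 147 and 156.9 in control and 187.8 and 167 in detrained libraries. The Bicral peak had 143.3 and 153.8 against 183.1 and 171.2. Both pairs were denser in detrained mice with no overlap, but both peaks were also shorter there, and as tags per peak the log2 ratios changed sign, from 0.22 to -0.11 at Gm7244 and from 0.25 to -0.20 at Bicral.

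Several members often shared a nearest gene. The 4611 pairs were assigned to 3112 genes, of which 2147 (69.0%) had a single pair, 626 had 2 pairs and 41 had 5 or more. The genes with the most pairs were 9430078K24Rik and Sik1 with 9 each, Bod1 and Mir3089 with 8 each, and 4930542M03Rik with 7. Sik1 encodes a salt-inducible kinase that phosphorylates class IIa histone deacetylases and CRTC coactivators, and its 9 pairs spanned 100.9 kb of chromosome 17 with median densities of 25.7 and 28.2 in control and 25.9 and 25.01 in detrained libraries. Log2 ratios at Sik1 ran from -0.51 to 0.52, with 3 pairs higher and 3 lower in detrained mice without overlap, beside 21.3% and 27.2% of all 26432 pairs. As tags per peak 8 of the 9 were higher.

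At Bod1, a gene for a protein of chromosome biorientation in mitosis, all 8 pairs had a lower mean in detrained mice, from -0.39 to -0.03 on the log2 scale, and 4 of them did not overlap between groups, beside 27.2% of all pairs lower without overlap and 46.0% of all pairs with a higher mean. As tags per peak all 8 were lower too. Median densities there were 34.8 and 39.0 in control and 29.9 and 31.8 in detrained libraries. At Mir3089 the medians were 50.9 and 49.3 against 40.4 and 38.5, with 4 pairs lower and 3 higher without overlap, again beside 27.2% and 21.3% of all pairs. At 4930542M03Rik they were 41.5 and 38.1 against 32.0 and 31.1, with 3 pairs lower and 0 higher without overlap, but as tags per peak 6 of 8 pairs at Mir3089 and 5 of 7 at 4930542M03Rik were higher. The noncoding gene 9430078K24Rik ran the other way, with 49.99 and 48.5 against 51.2 and 52.6, and 5 of 9 pairs had a higher mean, with 4 higher and 3 lower without overlap (21.3% and 27.2% of all pairs). Pairs around 1 gene share libraries and sequence context and are not replicates, and these genes were picked for their number of pairs.

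Density at paired members was close to equal between the groups. Members without a partner in the other list did not enter this comparison. The median log2 ratio of detrained over control was -0.016, the quartiles were -0.19 and 0.15, and the 5th and 95th percentiles were -0.46 and 0.42. The difference of the medians was -0.0057, smaller than the pooled SD between libraries of a group (0.033, n = 2 per group). Over all 26432 pairs the median was -0.026. The sign at members was not stable: it was 0.028 as tags per peak, 0.034 when each library was scaled by its tags in listed peaks, and 0.018 without C3.

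A difference of 2-fold or more, with the detrained libraries both above or both below the control libraries, was found at 2 paired members. Of 4611 pairs 1 was higher and 1 was lower, while among all 26432 pairs 0.0151% were higher and 0.0605% lower by the same rule, so the members did not stand out. The split depended on scaling: with each library scaled by its tags in listed peaks it was 2 higher and 0 lower at members and 9 and 8 over all pairs, and with the median of all pairs set to 0 it was 2 and 0, and 5 and 10 over all pairs. Without the 2-fold limit, 970 members (21.04%) were higher and 1159 (25.1%) lower in both detrained libraries than in both control libraries, beside 21.3% and 27.2% of all pairs. By tags per peak 49 members were 2-fold higher and 43 lower, beside 210 and 186 of all 26432 pairs. By density without Ex2, 5 members were higher and 11 lower, beside 18 and 50 of all pairs. An exact two-sided permutation test of 2 against 2 libraries cannot go below p = 0.333, and the lists were normalized separately, so no test between groups was made.

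**Figure D2:**
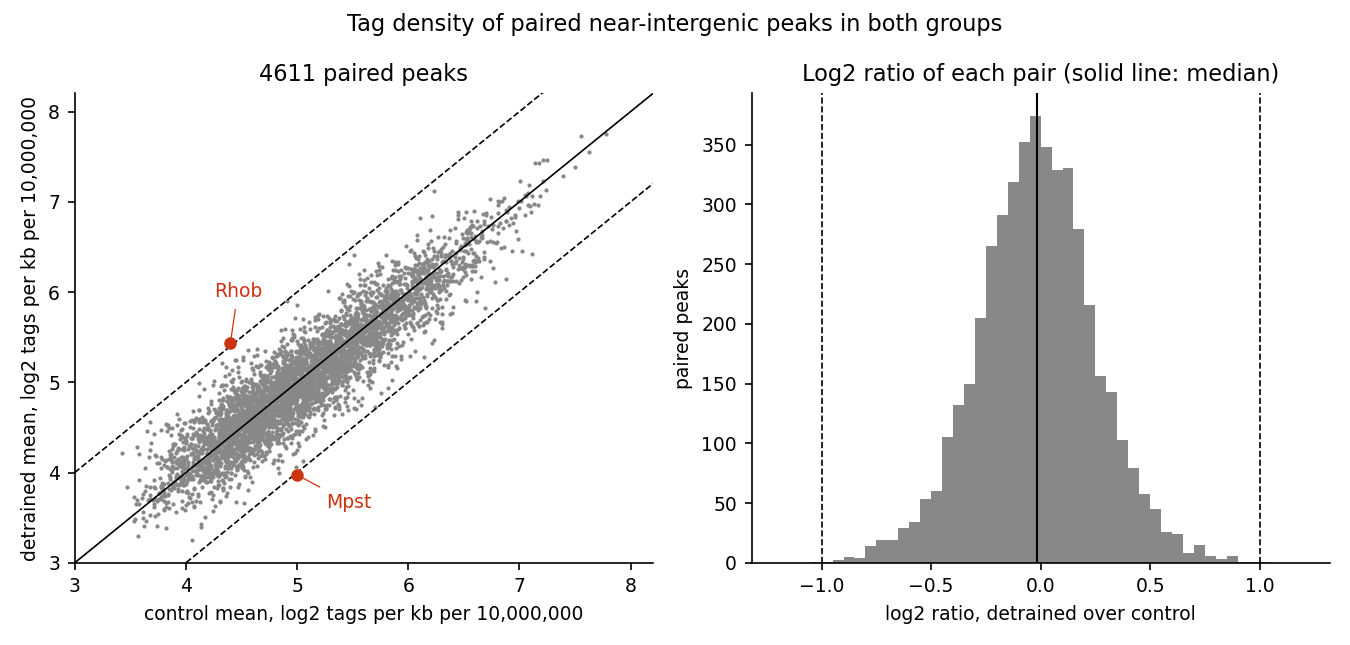
Left, mean log2 tag density of the 4611 paired near-intergenic peaks in control (x axis) and detrained mice (y axis), with the line of equality (solid) and 2-fold lines (dashed); the 2 pairs counted as 2-fold apart, near Rhob and Mpst, are in red. Right, number of pairs by log2 ratio of detrained over control (solid line, median of -0.016; dashed lines, 2-fold).

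The 2 pairs past the limit lay near Rhob and Mpst. The peak near Rhob, which encodes a small GTPase, lay 11540 bp upstream of the TSS (control chr12:8510822-8512277) and covered the GENCODE start of the antisense RNA 5033421B08Rik. Its density was 24.9 and 17.9 in control and 43.3 and 43.3 in detrained libraries, a log2 ratio of 1.04. The estimated tags behind it were 80.7 and 56.3 against 195 and 209, and the ratio stayed between 0.80 and 1.61 under 13 alternatives, the lowest without C3. The peak near Mpst, which encodes mercaptopyruvate sulfurtransferase, lay 9447 bp downstream of the TSS (chr15:78415628-78417475), with densities of 35.7 and 28.7 against 12.2 and 20.2 and a log2 ratio of -1.03. It rested on 147 and 115 against 29.3 and 52.7 estimated tags, and the ratio was -0.66 without Ex1. Under both other scalings it was no longer counted, at -0.975 with tags in listed peaks and -0.9995 with the median of all pairs set to 0. Both ratios lay close to the limit of 1.

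The 4 pairs named next for their ratio were under the limit by density. Near Gm20257, a pseudogene, densities were 25.6 and 35.2 in control and 60.7 and 59.2 in detrained libraries (log2 ratio 0.997), and the pair passed the limit under both other scalings, at 1.05 with tags in listed peaks and 1.02 with the median set to 0. Near Uchl5, a deubiquitinase of the proteasome, they were 17.1 and 23.3 against 36.7 and 37.5 (0.89). As tags per peak that ratio was 0.55, and without C2 it was 0.67. Near Ahdc1, an AT-hook DNA-binding protein gene, they were 33.0 and 30.5 against 11.8 and 23.5 (-0.93), so the detrained libraries differed from each other by a log2 SD of 0.71, and without Ex1 the ratio was -0.43. Near Gm38403 they were 47.1 and 57.3 against 24.8 and 28.3 (-0.97). There the detrained peak was 2490 bp long and the control peak 1396 bp, and as tags per peak the ratio was -0.14. No GENCODE gene lay under these 4 peaks.

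**Figure D3:**
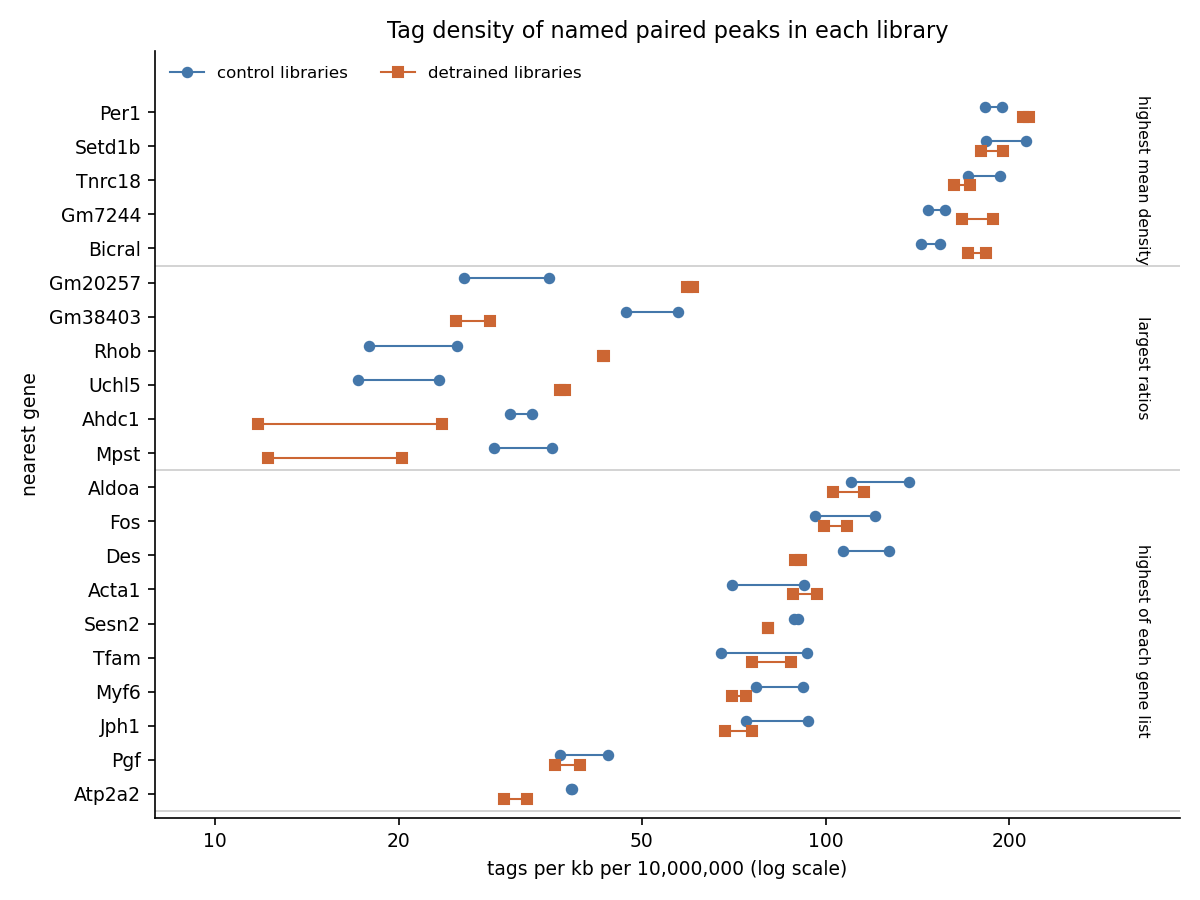
Tag density in each library (x axis, tags per kb per 10000000, log scale) of 21 named pairs, by nearest gene, with control libraries as blue circles and detrained libraries as orange squares. The 5 densest members shown lie between 143.3 and 215.3. The 6 picked for large ratios, without overlap and with tags per peak changing the same way, lie below 61 in every library. Of the list genes Des, Sesn2, Myf6 and Atp2a2 lie lower in detrained libraries without overlap, while the others but Per1 overlap.

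Lower density went with wider peaks, in part by construction. Across the 4611 pairs Spearman's rho between the log2 ratio and the log2 ratio of peak lengths was -0.47, where both ratios contain the same lengths. Over all 26432 pairs it was -0.53. Between groups the mean densities of 2 libraries correlated with rho = 0.91. Single libraries, at peaks called on those libraries, correlated with 0.91 (C2 and C3) and 0.92 (Ex1 and Ex2). Means and single libraries are unlike measures, so these values do not show whether groups differed more than libraries of a group. Subsets of members differed little. The median log2 ratio was -0.053 for the 116 pairs within 2 kb, -0.036 for 469 pairs at 2 to 5 kb, and 0.0072 and 0.00043 for the 690 and 474 pairs at 30 to 40 and 40 to 50 kb. It was -0.022 upstream (3341 pairs) and -0.0069 downstream (1270 pairs). For 2359 members that did not reach their TSS and whose nearest gene had its start under another pair, the log2 ratio at the member and at the gene start correlated with rho = 0.020, and 49.9% had the same sign.

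Whether a member had a counterpart in the other list depended on its score. Of the control members 69.7% touched a peak of the detrained list (95% Wilson interval 68.8 to 70.7%), and of the detrained members 80.02% touched a control peak (79.1 to 80.9%). These intervals cover counting error only. In control, the share was 34.1% below a score of 20, 61.4% from 20 to 30, 80.01% from 30 to 50, 94.0% from 50 to 100, 99.1% from 100 to 200, and 796 of 796 above. The detrained shares were 44.9%, 69.5%, 85.3%, 94.7%, 99.7% and 843 of 843. Members touching no peak of the other list numbered 2692 in control and 1524 in detrained mice, with median scores of 14.3 and 17.8 against 56.8 and 60.7 for the others. Only 10 and 4 of them reached a score of 100.

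**Figure D4:**
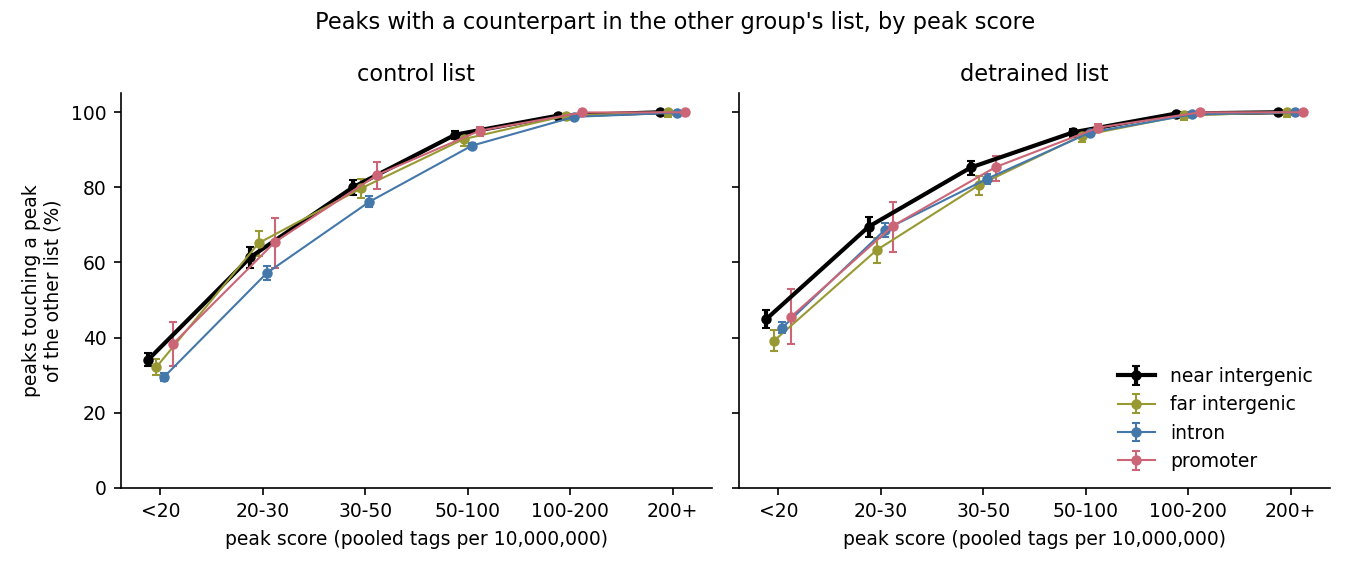
Percent of peaks that touch a peak of the other group's list (y axis) by peak score in pooled tags per 10000000 (x axis), for near-intergenic (black), far intergenic (50 kb or more), intron and promoter peaks, in the control (left) and detrained (right) lists; bars are 95% Wilson intervals. In every class the share climbs with score, for near-intergenic peaks from 34.1% and 44.9% below 20 to all 796 and 843 peaks at 200 or more.

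By class the share with a counterpart was 66.8% (control) and 74.7% (detrained) for intergenic peaks at 50 kb or more, 68.6% and 80.7% for intron peaks, and 93.1% and 94.8% for promoter peaks, whose median scores were 119.0 and 117.9. At scores from 50 to 100 in the control list the shares were closer, 94.0% for near-intergenic, 92.8% for far intergenic, 91.1% for intron and 95.1% for promoter peaks. Lists and not mice were compared, so the shares carry no replicate error.

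The strongest members found in 1 list only had scores up to 164.9 (control) and 159.2 (detrained). These lay above the upper quartile of all members (84.8 and 104) and far below the highest (4053.8 and 4015.9). In the control list they lay near Mascrna (score 164.9, 8322 bp downstream, chr19:5786026-5789293), 0610005C13Rik (162.5), Klf6 (162.0) and Poln (147.1). Mascrna is a small tRNA-like RNA cut from the Malat1 transcript, and the nearest detrained peak was 7904 bp away with a score of 6609.5. Klf6 encodes a zinc-finger factor of the early response, and its control-only peak lay 37380 bp downstream (chr13:5896982-5900756). Densities in C2 and C3 were 54.5 and 46.4 at Mascrna, 29.3 and 36.1 at 0610005C13Rik, 38.6 and 47.5 at Klf6, and 48.5 and 48.6 at Poln, a DNA polymerase gene. The Poln peak was 3032 bp long and centred 1359 bp upstream, so it was wide enough to reach the TSS.

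In the detrained list the strongest were near Ddit4l (159.2), a stress-induced inhibitor of mTORC1 signalling, Arrdc2 (128.4), Col1a1 (116.6), the alpha-1 chain of type I collagen, and E030018B13Rik (108.0). Their densities in Ex1 and Ex2 were 33.4 and 28.9, 21.5 and 25.8, 19.9 and 19.8, and 19.4 and 21.7. The Ddit4l peak lay 19310 bp downstream of the TSS (chr3:137640414-137645551) and the Col1a1 peak 20953 bp upstream (chr11:94912328-94918215). The other list had a peak within 1465 to 16188 bp of each of the 8. A peak in 1 list only says that the caller did not report it in the other, whose tags at that place were not analysed here.

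Members near muscle genes are described by 11 lists of 203 genes, of which 81 genes had a paired member, 129 pairs in all. The median log2 ratio over these 129 was 0.021 and 0 were counted as 2-fold apart. Without overlap, 31 pairs (24.0%) were higher and 28 (21.7%) lower in detrained mice, beside 21.3% and 27.2% of all pairs. List medians ran from -0.098 for glucose and glycogen metabolism to 0.13 for oxidative and lipid metabolism. As tags per peak, 2 of 11 list medians were below 0, compared with 7 of 11 by density, so the sign of a list's median rested on the measure.

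Among contractile genes, 8 pairs lay near the fast-fibre genes Acta1, Myh2, Myl1 and Tnnc2 and 4 near the slow-fibre genes Atp2a2 and Myl2. Of the fast-fibre pairs 5 had a higher and 3 a lower mean in detrained mice, with 2 each way without overlap (21.3% higher and 27.2% lower over all pairs) and a median of 0.12, but as tags per peak 1 was higher and 7 were lower, with a median of -0.24. The highest mean log2 density over both groups was near Acta1, skeletal muscle actin, 11776 bp downstream (chr8:123879137-123886861) inside the GENCODE gene Gm20388, with densities of 70.3 and 92.3 in control and 97.0 and 88.5 in detrained libraries, which overlapped. The Tnnc2 pair, centred 2548 bp upstream and reaching the TSS, had higher scores (1080.4 and 903.7 against 626.7 and 546.6 at Acta1) and densities of 74.5 and 91.0 against 89.4 and 80.7. For slow fibre the densest was near Atp2a2, the sarcoplasmic reticulum calcium pump of slow fibres, 25359 bp upstream. Its densities were 38.4 and 38.3 against 29.7 and 32.5, a log2 ratio of -0.30 without overlap that was -0.13 as tags per peak. Another Atp2a2 pair, 9249 bp upstream, went the other way without overlap, with 19.9 and 13.6 against 24.4 and 23.3 (0.53), and of the 4 slow-fibre pairs 2 were higher and 2 lower.

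Of the sarcomere and Z-disc genes 7 of 16 had a paired member, Actn2, Des, Myot, Myoz1, Neb, Ttn and Xirp1, with 3 pairs higher and 5 lower (median -0.033), beside 46.0% of all pairs higher. As tags per peak 4 were higher and 4 lower. The peak near Des, the muscle intermediate filament desmin, lay 14276 bp upstream (chr1:75343140-75348892). It had densities of 106.8 and 127.0 in control and 91.2 and 89.2 in detrained libraries without overlap, a log2 ratio of -0.37 that was -0.15 as tags per peak. The largest ratio of the list went the other way, near Myoz1. There densities were 63.0 and 75.7 against 116.2 and 109.2 without overlap (0.71, and 0.064 as tags per peak). Muscle transcription factors had 19 pairs at 12 of 22 genes, among them Myod1, Myog, Myf5, Myf6, Mef2a and Tead1, with 5 higher and 5 lower without overlap (21.3% and 27.2% of all pairs). The densest was a 13694 bp peak reaching the start of Myf6, a MyoD-family factor (chr10:107491420-107505114), with 76.8 and 91.9 against 74.1 and 70.3 (log2 ratio -0.22, and -0.021 as tags per peak).

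Of the 12 pairs near oxidative and lipid genes, including Ppargc1a, Pdk4, Cd36 and Lpl, 10 had a higher mean in detrained mice, beside 46.0% of all pairs, and 4 were higher against 1 lower without overlap, beside 21.3% and 27.2% of all pairs. As tags per peak the same 12 pairs were 6 higher and 6 lower. The densest was 13273 bp upstream of Tfam, the mitochondrial transcription factor A (chr10:71248607-71254028), with 67.4 and 93.4 against 75.7 and 87.6, which overlapped. Of the 18 pairs near glucose and glycogen genes, 7 were higher and 11 lower, but as tags per peak 13 were higher and 5 lower. The densest of these, at Aldoa, a glycolytic aldolase, reached the TSS (chr7:126796566-126810456) and had 109.9 and 136.7 against 115.8 and 102.8, again with overlap. The Tfam pair had a log2 ratio of -0.60 as tags per peak, where the detrained peak was 3485 bp long and its control peak 5421 bp.

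Early response genes, whose transcription is induced within minutes to hours of a stimulus, had the most pairs of any list, 22 at 12 of 22 genes including Fos, Egr1, Jun, Myc and Nr4a1, and 56 control and 48 detrained members in all. Of these pairs 6 were higher and 7 lower without overlap, beside 21.3% and 27.2% of all pairs (median -0.061). The densest lay 38156 bp upstream of Fos, a subunit of AP-1 (chr12:85433604-85437864), over the start of the GENCODE lincRNA gene Gm40477, and had 96.0 and 120.5 in control and 108.3 and 99.5 in detrained libraries. The groups overlapped there.

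Growth and atrophy genes had 11 pairs, 4 higher and 2 lower without overlap, beside 21.3% and 27.2% of all pairs (median 0.075). Their densest, 5026 bp upstream of Sesn2, a stress-induced inhibitor of mTORC1 (chr4:132514251-132516713), had 90.0 and 88.8 against 80.5 and 80.4, a log2 ratio of -0.15 with no overlap and -0.010 as tags per peak. Clock genes had 8 pairs at 6 of 18 genes, 4 higher and 4 lower, led by the Per1 peak described above. Genes of the neuromuscular junction and excitation had 9 pairs, the densest 22576 bp upstream of Jph1, which joins the sarcoplasmic reticulum to the transverse tubule (chr1:17117434-17123497), with 74.2 and 93.7 against 75.8 and 68.4. Angiogenesis and hypoxia genes had 10 pairs, the densest 16661 bp upstream of Pgf, placental growth factor (chr12:85191956-85195993), with 44.0 and 36.7 against 36.0 and 39.7. In both cases the groups overlapped. Among marker genes of other cell types, the 1 pair at a macrophage gene, Spi1, a myeloid transcription factor, had 76.0 and 74.0 in control and 46.1 and 42.8 in detrained libraries, a log2 ratio of -0.76 that was 0.17 as tags per peak. The 5 endothelial pairs had a median of 0.15 (0.19 as tags per peak), the 8 fibroblast pairs 0.084 (0.23) and the 5 myofibre pairs 0.16 (-0.15).

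**Figure D5:**
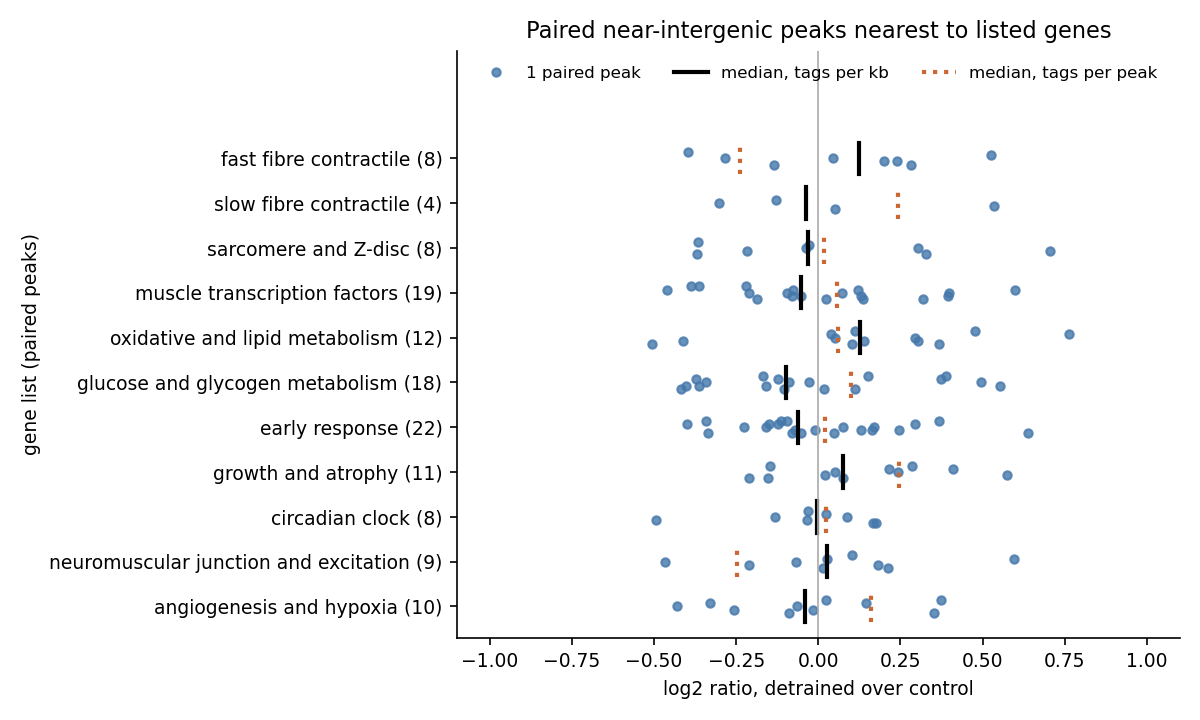
Log2 ratio of detrained over control (x axis) for each paired near-intergenic peak nearest to a gene of 11 lists (y axis, number of pairs in brackets), with the list median by tags per kb (black bar) and by tags per peak (dotted orange bar). Every list spans 0, and the medians lie between -0.098 and 0.13 by tags per kb.

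In base composition the members lay closer to other distal peaks than to promoters. Over the central 300 bases the median GC content was 48.7% for near-intergenic, 46.7% for far intergenic, 48.3% for intron and 62.0% for promoter pairs, and 52.7% for 32851 RefSeq promoters of the same length. CpG dinucleotides averaged 5.24 per window at members against 22.6 at promoter pairs, and 10.7% of members held 10 or more against 82.0%. GC content was unrelated to the log2 ratio (rho = -0.00017 over 4611 windows).

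Motifs were searched as exact letters on both strands. The E-box CAGCTG, which MyoD-family factors bind, was in 987 member windows (21.4%), in 22.04% of far intergenic, 20.3% of intron and 13.5% of promoter windows, and in 16.3% of RefSeq promoters. The MEF2 site TAAAAATA was in 5.05% of members, 5.75% of far intergenic, 5.30% of intron and 1.23% of promoter windows (2.72% of RefSeq promoters). The AP-1 site TGAGTCA was in 8.63% of members, 9.82% of far intergenic, 7.35% of intron and 3.24% of promoter windows (5.20% of RefSeq promoters). The RUNX site TGTGGTT was in 7.05%, 6.65%, 6.24% and 2.99% in that order (5.27%). The TEAD site CATTCCA was in 5.14% of members (95% Wilson interval 4.54 to 5.82%) and in 7.45% of far intergenic windows, with 4.72% of intron and 2.06% of promoter windows (4.29%). The GC box GGGCGGG ran the other way, in 6.14% of members and 38.8% of promoter windows (25.6%), as did the NFY site CCAATCA, in 3.27% and 7.24% (7.82%). The ERR site TCAAGGTCA was in 34 members (0.737%) and the MEF3 site TCAGGTTTC in 23 (0.499%).

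Members with and without a motif had similar ratios between groups. The median log2 ratio was -0.0078 for members with an E-box and -0.019 for those without, -0.0069 and -0.017 for AP-1, and -0.055 and -0.013 for MEF2. For the 34 members with an ERR site it was 0.091 against -0.017 without. Members with a GC box were denser than those without in every library, with median log2 densities of 5.20, 5.24, 5.26 and 5.17 in C2, C3, Ex1 and Ex2 against 4.97, 5.03, 5.01 and 4.98. This was not particular to the GC box, since it held for every searched motif but AP-1 and RUNX. The 34 members with an ERR site had 5.27, 5.28, 5.33 and 5.27 against 4.98, 5.04, 5.01 and 4.99. Motifs were counted separately, with overlaps between them kept, and a match describes a window, not a bound site.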

How the data were processed

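H3K27ac ChIP-seq was measured in 2 control and 2 detrained quadriceps libraries with 1 input each. Per the labels, reads were aligned by the authors to mm10 using Bowtie 1.2, and the authors called peaks with HOMER on the pooled libraries of each group against its input. The authors deposited 1 table per group with a pooled signal per peak (tags per 10000000) and log2 values per library, normalized to total tags and drawn together at weak peaks, so the spread between libraries may be understated. Further deposited columns hold the enrichment of each peak over input as a log2 fold with its p-value and adjusted p-value and were not used.

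Columns C2 and C3 were assigned to the control group only, because the labels number these samples 1 and 2. Per the study's methods each library came from 1 quadriceps of a separate animal. For each peak, the pooled tags were divided between libraries in proportion to library total and log2 value. At peaks of at least 1000 pooled tags, libraries of a group differed beyond counting noise (chi-square per degree of freedom 6.27 and 4.25). The repeat field was empty in every row, so no member was left out as a repeat. Of members with a matching RefSeq transcript, 92.9% and 92.6% had the deposited distance within 2 bp on GRCm38.p6.

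A pair was counted when the means were 2-fold or more apart and the libraries of the groups did not overlap. Pairs named were the 6 densest, the 3 largest differences each way without overlap of libraries and with tags per peak changing the same way, the densest of each gene list, the 4 highest scores found in 1 list only, and the 5 genes with most pairs. One of these pairs is not reported here. Members, lists and rules were chosen with earlier results of these data known. The calculation was tested on simulated data with changes larger than 2-fold and log2 values not drawn together. Changes near the limit and drawn-together values were not covered by that test. Calculations ran in Python (version 3.11.15) with pandas (2.3.3), numpy (2.4.6) and scipy (1.17.1), and plots were drawn with matplotlib (3.10.9). GENCODE vM21 and RefSeq gave annotation and sequence.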

Additional observations from a re-analysis of the deposited data

How the results depend on the processing

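No pair counted as 2-fold apart changed sign under an alternative, but pairs called only as not overlapping did, such as Gm7244 and Bicral as tags per peak. The median was a log2 ratio of 0.028 at paired members as tags per peak, 0.034 scaled by tags in listed peaks, and between -0.052 and 0.018 with 1 library left out. The number of pairs 2-fold apart was 92 as tags per peak (beside 210 higher and 186 lower of all 26432 pairs), 0 with a pseudocount of 5 (2 and 9), 7 with any one-to-one overlap (17 and 37 of 28730), 0 where pairs had to cover 80% of each other (0 and 2 of 12556) and 1 at scores of at least 30 (4 and 16, all pairs at any score). With 1 library left out it was between 3 (without Ex1, beside 8 and 17 of all pairs) and 16 (without Ex2, beside 18 and 50), with 14 without C2 (15 and 42) and 9 without C3 (22 and 17). Gene lists with a median below 0 numbered 2 as tags per peak, 3 scaled by tags in listed peaks, 4 at distances under 20000 bp, and 3 to 7 with 1 library left out. The cause was not tested. The share of control members with a partner under the 50% rule was 52.8%, and 72.7% under that rule with scores of at least 30 required in both lists. It was 69.7% for any overlap and 23.4% for a cover of 80%. The detrained shares were 61.7%, 73.6%, 80.02% and 27.4% in that order. The log2 gap to far intergenic pairs was 0.155 as tags per peak. In the central 200 bases motif shares were smaller, as the window is shorter: 14.5% (E-box), 3.36% (MEF2), 0.26% (MEF3), 5.86% (AP-1), 0.434% (ERR), 3.54% (TEAD), 4.49% (RUNX), 2.47% (NFY) and 4.14% (GC box). Of 276 values of the named pairs under alternatives, 18 had the other sign, 9 of them as tags per peak. The alternative with repeats kept could not be run, since the repeat field was empty. The use of the soft-masked centre base was chosen after seeing the data. No paired analysis was possible because columns C2 and C3 do not match the control sample numbers 1 and 2, which leaves fewer than 2 numbers shared by the groups. With 2 libraries per group and separately normalized lists, small differences could not be detected.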
